A study of Mus musculus with 212 samples.

Results

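Cirbp and Rbm3 encode a pair of small RNA-binding proteins whose messages accumulate when mammalian cells are cooled mildly. Their rows were taken from a gene-level table of mouse skin fibroblasts by matching Ensembl identifiers to the symbols, which gave 2 genes of 47631 in the table. Cells were of strain C57BL/6 and were either Bmal1-/-, lacking the clock gene Bmal1 (symbol Arntl), or wild type (WT). Confluent cultures of both genotypes received 100 nM dexamethasone, a glucocorticoid that sets cellular clocks to a common phase, for 15 min, were moved to HEPES-buffered medium, and were first harvested 48 h later. The libraries form 10 time courses: Bmal1-/- and WT at 27, 32 and 37 °C, with time points from CT0 to CT46 every 2 h, and Bmal1-/- and WT in the courses named PM and AM, with time points from CT0 to CT48 every 3 h. Neither the meaning of AM and PM nor the temperature of those courses is in the labels. Each time point has 1 library, drawn from 3 wells, and no source used here says how many cell preparations each genotype came from, so a p-value reflects scatter among libraries and not among preparations. Of 212 libraries 210 were used in the main results. The pair labelled CT14 at 27 °C was left out because Cdkn1a, the p21 cell cycle inhibitor, went against both labels.

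CIRBP and RBM3 each carry 1 RNA recognition motif followed by a glycine-rich tail. Both are known to bind messenger RNAs in cooled cells and to affect their stability, polyadenylation and translation, and in mouse fibroblasts CIRBP is known to sustain the amplitude of circadian gene expression. Transcription factor Sp1, alternative splicing controlled by temperature-sensitive CLK kinases, and the fate of unspliced transcripts have each been reported to set the amount of their messages.

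The 2 genes differ in how well their reads can be placed. Cirbp (ENSMUSG00000045193, chromosome 10, 80165985 to 80172786, plus strand, GRCm38) had 0 near-identical copies among the annotated transcripts, at an identity of at least 95% over at least 200 bases. Rbm3 (ENSMUSG00000031167, chromosome X, 8138975 to 8145880, minus strand) had 5 such entries. The processed pseudogene Rbm3-ps (ENSMUSG00000099875, chromosome 1, 150265535 to 150265999, minus strand) matched the Rbm3 coding sequence at 99.355% over 465 bases, with 3 mismatches. These were T198C, T315C and G316A, with the Rbm3 base first and positions counted from 1 at the first base of the coding sequence. The stretch of bases 197 to 316, which holds all 3, is shown because within the aligned part a read differs between Rbm3-ps and Rbm3 only where it covers at least 1 of these bases, with the differing bases in capitals:
Rbm3: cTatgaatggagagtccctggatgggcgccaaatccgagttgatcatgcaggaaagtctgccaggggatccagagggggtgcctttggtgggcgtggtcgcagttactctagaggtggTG
Rbm3-ps: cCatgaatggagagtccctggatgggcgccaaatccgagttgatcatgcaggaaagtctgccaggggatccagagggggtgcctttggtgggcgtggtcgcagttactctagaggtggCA
Reads were 101 bases long, and 162 of the 365 windows of that length in Rbm3-ps (44.4%) were letter for letter identical to Rbm3 mRNA. Of these, 159 lay across a junction of Rbm3 exons, where a spliced read of Rbm3 matches the intronless copy without a gap. A second processed copy, Gm10156 (chromosome 7, 107863039 to 107863500, plus strand), matched at 98.495% and shared 147 of 362 windows. Gm13624, another processed copy on chromosome 2, shared 0 windows and averaged between 0.0463 and 0.241 FPKM per course. No source used here says how reads that fit several places were counted, so the Rbm3 row may hold only some of the reads from Rbm3. Rbm3 is therefore given as its own row, with Rbm3-ps beside it, and also as the sum of Rbm3, Rbm3-ps, Gm10156 and Gm13624. In that sum each copy is weighted by its length over that of the shortest (969 bases) or the longest (2792 bases) coding Rbm3 transcript. The copies were chosen by this identity search after their values had been seen.

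RefSeq promoters (GRCm38.p6) held an entry for Cirbp, and its 250 bases before the upstream start site are shown because the series cools a gene known to answer to cold. The window lies at chr10:80167589-80167838 on the plus strand, and the capitals mark the motifs searched on both strands, TCCCCGCC (the mild cold response element), GGGCGG (the GC box bound by Sp1) and CACGTG (the E-box bound by CLOCK and BMAL1).
Cirbp: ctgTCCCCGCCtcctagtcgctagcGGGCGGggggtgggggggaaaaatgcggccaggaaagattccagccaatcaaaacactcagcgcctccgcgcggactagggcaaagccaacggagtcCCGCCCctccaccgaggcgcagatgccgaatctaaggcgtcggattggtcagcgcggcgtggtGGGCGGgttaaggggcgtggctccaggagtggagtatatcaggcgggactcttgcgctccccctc
It held 1 TCCCCGCC, at position 4 from the left end, 3 GC boxes and 0 E-boxes, and no motif overlapped another. Over 32851 promoters of the same length, 4.642% held TCCCCGCC, 32.742% a GC box and 6.021% an E-box. The window before the second Cirbp start site held 4 GC boxes and neither other motif. These are matches of letters, not sites shown to be bound.

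Expression is given in FPKM, fragments scaled for transcript length and mapped reads, so levels can be set side by side between genes. The deposited table gives no counts. Library depth, estimated from what 1 read is worth in FPKM, had its median at 23.46 M reads and its extremes at 9.13 and 32.12 M, lowest in the WT AM library at CT36. Arntl averaged 7.14 ± 0.428 FPKM in Bmal1-/- and 6.17 ± 1.11 FPKM in WT at 32 °C (SD over 24 time points each), and since no label names the deleted part this does not check the genotype. Cdkn1a separated the genotypes, between 97.8 and 150 FPKM in the Bmal1-/- libraries and between 1.08 and 7.12 FPKM in the WT libraries. All 9 fibroblast markers averaged at least 1 FPKM in every course, and their sum ran from 9394 to 17813 FPKM. At 27 °C against 37 °C, 2 of the 9 were called higher and 0 lower in Bmal1-/-, and 1 higher and 2 lower in WT. Of all genes tested, 7.64% were called higher and 4.04% lower in Bmal1-/-, and 8.38% and 5.21% in WT. For Bmal1-/- against WT at 37 °C 1 marker was called higher and 3 lower, beside 6.22% and 7.69% of all genes. Sums of 4 markers each ran from 0.59 to 1.69 FPKM for keratinocytes, 1.21 to 4.93 for endothelium, 1.5 to 30.8 for macrophages (Ptprc and Adgre1 near 0, Cd68 the largest), 1.2 to 16.7 for melanocytes (Dct and Tyr near 0) and 0.0872 to 0.367 for skeletal muscle. Mlana, the largest melanocyte marker in WT, averaged between 0.0919 and 0.286 FPKM in the Bmal1-/- courses and between 5.71 and 16 FPKM in the WT courses. Pmel, the largest in Bmal1-/-, averaged between 1.01 and 1.51 FPKM in Bmal1-/- and between 0.598 and 0.784 FPKM in WT. The endothelial marker Kdr averaged 0.439 FPKM in Bmal1-/- and 3.64 in WT in PM, and 0.287 and 3.54 in AM. Its log2 differences were -1.68 and -1.8, and it passed the filter of 1 FPKM on the mean there only through WT. At 27 °C it went the other way, at 0.546 FPKM in Bmal1-/- and 0.189 in WT. Tek was near equal, at 1.23 and 1.17 FPKM in PM and 1.2 and 1.25 in AM, Bmal1-/- first. Pecam1 was higher in Bmal1-/-, at 0.159 and 0.0887 FPKM in PM and 0.112 and 0.0662 in AM. Cdh5 averaged at most 0.0243 FPKM. The part of these markers in the genotype differences was not tested. Cd68, the 1 macrophage marker abundant enough to test, rose at 27 °C against 37 °C by 3.73 on the log2 scale in Bmal1-/- and 3.16 in WT, as Cirbp and Rbm3 did, and its part in their results was not tested. In these bulk samples fewer expressing cells and less RNA per cell cannot be told apart.

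Cirbp was high in the cold in both genotypes, and highest in cooled Bmal1-/- cells. In Bmal1-/- its lowest, median and highest levels were 133, 163 and 183 FPKM at 27 °C, 76.6, 87.3 and 99.3 FPKM at 32 °C, and 20.1, 23.2 and 28.9 FPKM at 37 °C. In WT they were 63.3, 90.9 and 98.7 FPKM at 27 °C, 40.1, 49 and 55.1 FPKM at 32 °C, and 12.3, 17 and 23.5 FPKM at 37 °C. Within a genotype no library of one temperature reached the range of another, and each colder library was above the warmer one at every matched time point. For these and all later ranges and time point counts, the share of all genes that do the same was not computed. The 27 °C range of WT overlapped the 32 °C range of Bmal1-/-. The 32 °C range of WT, in contrast, lay wholly above the 37 °C range of Bmal1-/-.

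Ordered by course mean, Cirbp stood at 167 ± 11.5 FPKM in Bmal1-/- 27 °C (SD, n = 23), 90 ± 8.29 in WT 27 °C, 87.6 ± 6.14 in Bmal1-/- 32 °C, 48.5 ± 4.72 in WT 32 °C, 45.8 ± 3.72 in Bmal1-/- PM, 34.7 ± 6.11 in Bmal1-/- AM, 26.9 ± 5.03 in WT PM, 24.1 ± 2.52 in Bmal1-/- 37 °C, 19.3 ± 3.09 in WT AM and 17.7 ± 2.93 in WT 37 °C. Some neighbouring pairs differed by less than the larger SD of the pair. They were WT 27 °C and Bmal1-/- 32 °C, WT 32 °C and Bmal1-/- PM, WT PM and Bmal1-/- 37 °C, and WT AM and WT 37 °C. No library of any course listed Cirbp or Rbm3 at 0.

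**Figure D1:**
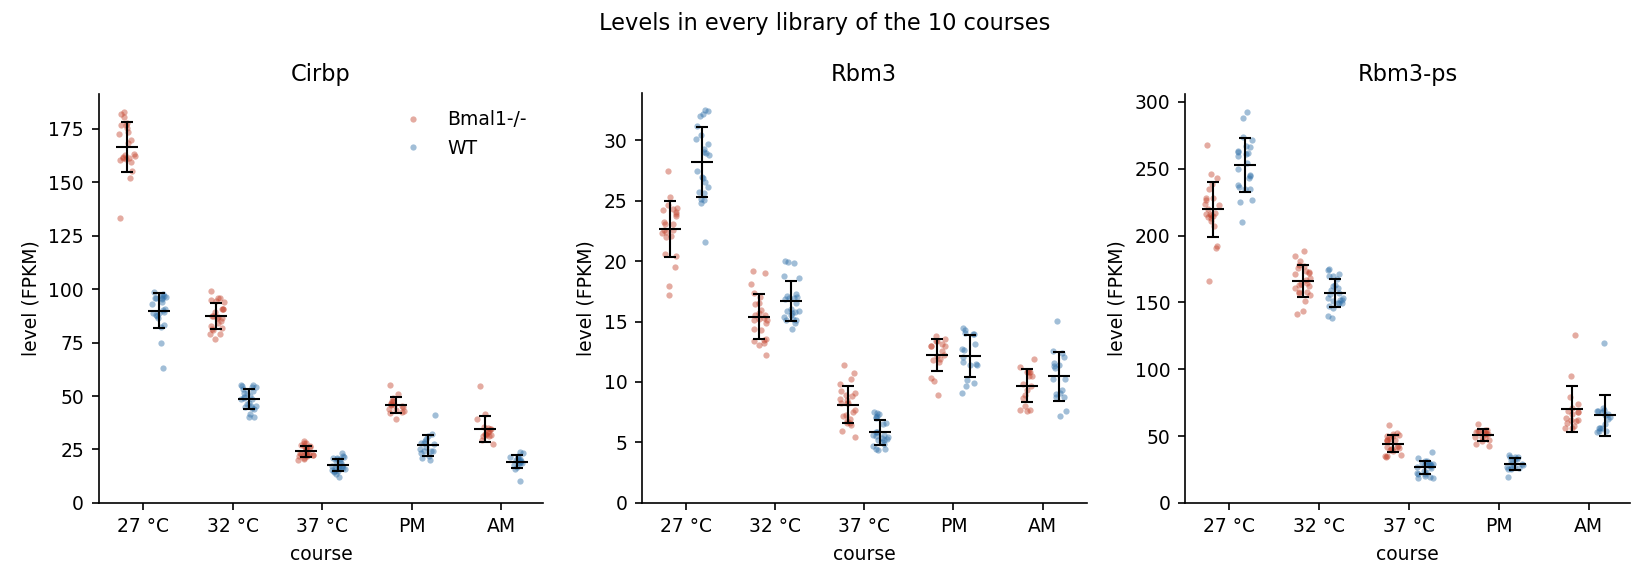
Levels of Cirbp, Rbm3 and the processed pseudogene Rbm3-ps in FPKM on linear axes that start at 0, by course; each point is 1 library, horizontal marks are the means and bars the SD over the time points of a course, with Bmal1-/- left of WT. Cirbp averaged 167 FPKM in Bmal1-/- against 90 FPKM in WT at 27 °C, while Rbm3 averaged 22.7 FPKM in Bmal1-/- against 28.2 FPKM in WT.

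The temperature comparison was tested with limma on log2(FPKM + 1) over the 6 temperature courses, with 13031 genes tested. Calls needed a difference of 2-fold or more on that scale, which understates the change of low genes, together with a Benjamini-Hochberg adjusted p below 0.05. Cirbp rose at 27 °C against 37 °C by 2.74 on the log2 scale in Bmal1-/- (SE 0.04, adjusted p = 8.23e-96) and by 2.3 in WT (SE 0.04, adjusted p = 2.6e-87). These are 6.7-fold and 4.91-fold, ranking 18th and 58th from the top. It also rose at 32 °C against 37 °C, by 1.82 in Bmal1-/- and 1.41 in WT, at adjusted p = 1.88e-75 and 8.11e-64. Genes called higher made up 7.64% of those tested at 27 °C against 37 °C in Bmal1-/- and 8.38% in WT, and at 32 °C against 37 °C 1.77% and 1.93%. The p criterion alone was met by 85.8% of genes in Bmal1-/- and 87.1% in WT at 27 °C against 37 °C, and by 76.8% and 79.2% at 32 °C against 37 °C. The 27 °C to 32 °C difference was 0.92 in Bmal1-/- and 0.88 in WT, just under the 2-fold limit, where 1.43% and 1.61% of genes were called higher and 79.9% and 81% met the p criterion. The comparisons of a genotype share their 37 °C or 32 °C libraries.

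Rbm3, read on its own row, was lower than Cirbp in every course and also higher in the cold. The ratio of Cirbp to Rbm3 averaged between 1.88 in WT AM and 7.42 in Bmal1-/- 27 °C. With the copies summed at the shortest length that order did not hold in most courses. Summed Rbm3 was at 162.5 FPKM beside 90 FPKM for Cirbp in WT 27 °C and 45.2 FPKM beside 19.3 FPKM in WT AM. The order held at that length in Bmal1-/- 27 °C (138.9 beside 167 FPKM) and Bmal1-/- PM (39.4 beside 45.8 FPKM). At the longest length it failed only in WT AM, at 22.5 FPKM beside 19.3 FPKM. In Bmal1-/- the lowest, median and highest levels of the Rbm3 row were 17.2, 23.1 and 27.5 FPKM at 27 °C, 12.3, 15.3 and 19.2 FPKM at 32 °C, and 5.45, 8.22 and 11.4 FPKM at 37 °C. In WT they were 21.6, 28.8 and 32.5 FPKM at 27 °C, 14.4, 16.2 and 20 FPKM at 32 °C, and 4.38, 5.58 and 7.53 FPKM at 37 °C. Both cold ranges lay above the 37 °C range in each genotype, and the 27 and 32 °C ranges overlapped in Bmal1-/- but not in WT. By course mean the order was WT 27 °C at 28.2 ± 2.92 FPKM (SD), Bmal1-/- 27 °C at 22.7 ± 2.34, WT 32 °C at 16.7 ± 1.65, Bmal1-/- 32 °C at 15.4 ± 1.84, Bmal1-/- PM at 12.2 ± 1.35, WT PM at 12.1 ± 1.73, WT AM at 10.5 ± 2.03, Bmal1-/- AM at 9.7 ± 1.38, Bmal1-/- 37 °C at 8.1 ± 1.52 and WT 37 °C at 5.82 ± 1.02. The pairs WT and Bmal1-/- at 32 °C, Bmal1-/- PM and WT PM, WT PM and WT AM, and WT AM and Bmal1-/- AM differed by less than the larger SD.

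Rbm3 rose at 27 °C against 37 °C by 1.39 on the log2 scale in Bmal1-/- (SE 0.04, adjusted p = 1.82e-66 by limma) and by 2.11 in WT (SE 0.04, adjusted p = 1.71e-86), ranking 359th and 76th. At 32 °C against 37 °C it rose by 1.38 in WT (adjusted p = 6.09e-66). The Bmal1-/- difference of 0.86 (adjusted p = 7.35e-45) stayed under the 2-fold limit and passed it when the copies were summed with Rbm3, at 1.46 with the longest transcript length and 1.7 with the shortest. The difference of 27 °C and 32 °C was 0.53 in Bmal1-/- and 0.72 in WT.

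Rbm3-ps was listed far above Rbm3 in FPKM. Its differences from 37 °C were larger than those of Rbm3, and its difference of 27 °C and 32 °C was not, at 0.4 in Bmal1-/- and 0.69 in WT. It ran from 166 to 268 FPKM in Bmal1-/- and from 210 to 293 FPKM in WT at 27 °C, from 141 to 188 FPKM in Bmal1-/- and from 138 to 175 FPKM in WT at 32 °C, and from 34.1 to 58 FPKM in Bmal1-/- and from 18.6 to 37.9 FPKM in WT at 37 °C. It rose at 27 °C against 37 °C by 2.29 in Bmal1-/- and 3.23 in WT, ranking 39th and 6th of the genes tested, and Gm10156 rose by 2.14 and 2.73. The ratio of Rbm3-ps to Rbm3 in FPKM averaged 9.73 at 27 °C, 10.9 at 32 °C and 5.66 at 37 °C in Bmal1-/-, and 9.0 at 27 °C, 9.46 at 32 °C and 4.58 at 37 °C in WT. Reads listed under the copies thus formed a larger share of the sum in the cold, 64% at 27 °C and 50.3% at 37 °C in Bmal1-/- and 62.3% at 27 °C and 46% at 37 °C in WT with the longest transcript length. Summed with its copies at that length, Rbm3 differed by 1.9 in Bmal1-/- and 2.7 in WT at 27 °C against 37 °C, and at the shortest length by 2.11 and 2.97. The antisense transcript Rbm3os, which overlaps Rbm3, averaged between 0.521 and 0.685 FPKM per course.

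**Figure D2:**
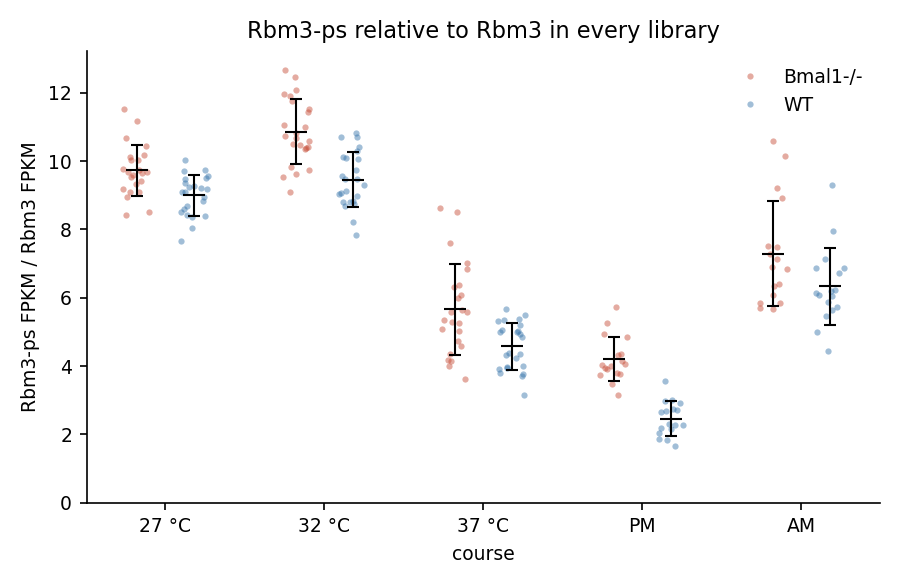
FPKM of Rbm3-ps divided by FPKM of Rbm3 in each library on a linear axis from 0, by course, with Bmal1-/- left of WT; horizontal marks are means and bars the SD. The means were 10.9 in Bmal1-/- and 9.46 in WT at 32 °C, 5.66 in Bmal1-/- and 4.58 in WT at 37 °C, 4.21 in Bmal1-/- and 2.46 in WT in PM, and 7.3 in Bmal1-/- and 6.34 in WT in AM.

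The response to the 2 steps of 5 °C was uneven. The difference of the steps, 27 °C minus 32 °C less 32 °C minus 37 °C on the log2 scale, was -0.9 for Cirbp in Bmal1-/- (SE 0.07, adjusted p = 1.87e-23 by limma) and -0.53 in WT (adjusted p = 1.74e-11), so the step next to 37 °C was the larger. For Rbm3 it was -0.33 in Bmal1-/- and -0.66 in WT, at adjusted p = 3.25e-06 and 4.15e-17. None of the 4 passed the 2-fold limit, whereas 3.18% of genes in Bmal1-/- and 4.07% in WT were called lower and 1.06% and 1.97% higher. The p criterion alone held for 66.9% in Bmal1-/- and 67.8% in WT. Summed with its copies, Rbm3 gave -1.02 and -1.29 in Bmal1-/- and -1.32 and -1.61 in WT with the longest and the shortest length, past the limit.

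The median over the genes tested was 0.21 in both genotypes at 27 °C against 37 °C, and 65.4% of the calls in Bmal1-/- and 61.7% in WT were to the higher side. Median-of-ratios scaling brought that median to 0 within rounding and the share of higher calls to 41.7% and 38.2%. At 32 °C against 37 °C the share of higher calls was 65.2% in Bmal1-/- and 58.5% in WT as deposited and 50% and 43.6% scaled, and at 27 °C against 32 °C 42.9% and 36.9% as deposited and 30.1% and 25.6% scaled. With that scaling Cirbp differed by 2.51 in Bmal1-/- and 2.06 in WT at 27 °C against 37 °C, and Rbm3 by 1.17 and 1.89.

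Cirbp was higher in Bmal1-/- than in WT in each of the 5 conditions, and Rbm3 was lower in Bmal1-/- at 27 °C and higher at 37 °C. Cirbp differed by 0.88 at 27 °C, 0.84 at 32 °C and 0.43 at 37 °C on the log2 scale, and by 0.77 in PM and 0.83 in AM, each with an adjusted p under 0.05 by limma and the weakest at 3.71e-15. In fold this is 1.84 at 27 °C, 1.79 at 32 °C, 1.35 at 37 °C, 1.7 in PM and 1.78 in AM. The Bmal1-/- library was above the WT library at 23 of 23 matched time points at 27 °C, at 24 of 24 at 32 and 37 °C, and at 17 of 17 in PM and AM. Ranges of the genotypes did not overlap at 27 °C, at 32 °C or in AM. How common such separation is over all genes was not computed. The AM levels ran from 27.7 to 54.6 FPKM in Bmal1-/- and from 10.4 to 23.8 FPKM in WT, and the PM levels from 39 to 55.2 FPKM in Bmal1-/- and from 19.9 to 41.1 FPKM in WT.

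Cirbp was called at 2-fold in 0 of the 5 genotype comparisons. Genes called higher in Bmal1-/- made up 6.38% of those tested at 27 °C, 6.96% at 32 °C, 6.22% at 37 °C, 7.35% in PM and 6.86% in AM. Genes called lower made up 7.08%, 7.59%, 7.69%, 8.23% and 7.78% in the same order. The p criterion alone was met by many genes, 84.4% of genes at 27 °C, 85.3% at 32 °C, 84.3% at 37 °C, 82.3% in PM and 82.4% in AM.

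Rbm3 was lower in Bmal1-/- than in WT by 0.31 at 27 °C (log2 difference -0.31, SE 0.04, adjusted p = 1.32e-12 by limma) and higher by 0.41 at 37 °C (SE 0.04, adjusted p = 9.29e-20). Its Bmal1-/- library was the higher at 2 of 23 matched time points at 27 °C and at 22 of 24 at 37 °C. At 32 °C the difference was -0.11 (adjusted p = 0.00422), with Bmal1-/- the higher at 3 of 24 time points, and with the copies summed it was 0.01 or 0.04 with no call. In PM the difference was 0.02, with a 95% interval from -0.11 to 0.14, and in AM -0.09, from -0.22 to 0.03. Rbm3 was called at 2-fold in 0 of the 5, and the genotype ranges overlapped in all of them. Rbm3-ps was lower in Bmal1-/- by 0.2 at 27 °C (-0.2) and higher by 0.73 at 37 °C and 0.78 in PM, the PM ranges not overlapping at 42.8 to 59 FPKM in Bmal1-/- and 19 to 36 FPKM in WT. Summed with its copies, Rbm3 in PM was higher in Bmal1-/- by 0.29 with the longest and 0.48 with the shortest length (adjusted p = 2.49e-05 and 2.37e-09).

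The cold response itself differed between genotypes, in opposite senses for the 2 genes. The difference at 27 °C against 37 °C was larger in Bmal1-/- than in WT by 0.45 for Cirbp (SE 0.06, adjusted p = 6.68e-12 for the interaction by limma) and smaller by 0.72 for Rbm3 (-0.72, SE 0.05, adjusted p = 7.81e-25). At 32 °C against 37 °C the interaction was 0.41 for Cirbp (adjusted p = 3.38e-10) and -0.52 for Rbm3 (adjusted p = 3.15e-16). For Rbm3-ps it was -0.94 at 27 °C and -0.65 at 32 °C, and for Rbm3 summed with its copies -0.8 and -0.86 at 27 °C. None passed 2-fold, where 2.74% of genes were called higher and 1.67% lower at 27 °C and 0.798% and 0.691% at 32 °C. The p criterion alone held for 68.9% of genes at 27 °C and 56.2% at 32 °C. The ratio of Cirbp to Rbm3 in FPKM shows the same values another way, at 7.42 ± 0.861 in Bmal1-/- and 3.21 ± 0.308 in WT at 27 °C (SD), 5.77 ± 0.856 and 2.92 ± 0.288 at 32 °C, and 3.08 ± 0.705 and 3.09 ± 0.52 at 37 °C, Bmal1-/- first.

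**Figure D3:**
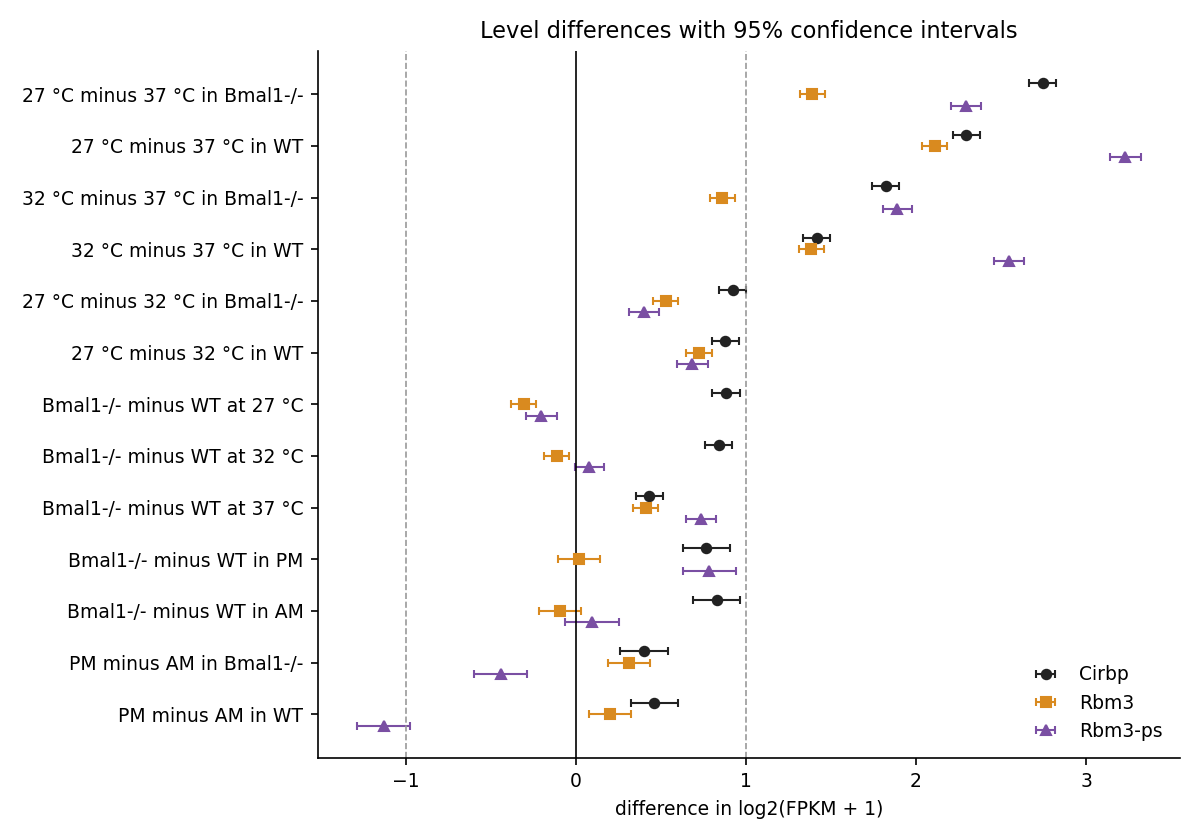
Differences in log2(FPKM + 1) of Cirbp, Rbm3 and Rbm3-ps for each comparison, with 95% confidence intervals from limma; dashed lines mark a 2-fold difference. Cirbp and Rbm3 lie on opposite sides of 0 for Bmal1-/- minus WT at 27 °C, at 0.88 and -0.31, and Rbm3-ps lies at -1.13 for PM minus AM in WT, where Rbm3 lies at 0.2.

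PM and AM are separate courses, tested in a fit of their own over 68 libraries and 13307 genes. Cirbp was higher in PM than in AM by 0.4 on the log2 scale in Bmal1-/- (SE 0.07, adjusted p = 1.42e-06 by limma) and by 0.46 in WT (adjusted p = 5.34e-08), at 16 and 17 of 17 matched time points. Rbm3 was higher in PM by 0.31 in Bmal1-/- (adjusted p = 1.5e-05) and 0.2 in WT (adjusted p = 0.00345). Neither gene reached 2-fold in either genotype, where 0.519% of genes in Bmal1-/- and 1.61% in WT were called higher and 63.6% and 66.9% met the p criterion. Rbm3-ps went the other way, lower in PM at 17 of 17 time points in both genotypes, a count not made for all genes. It averaged 50.8 ± 4.22 FPKM in PM and 70.2 ± 17.2 in AM in Bmal1-/-, and 29.3 ± 4.4 FPKM in PM and 65.5 ± 15.4 in AM in WT (SD, n = 17). Its difference of -1.13 in WT (adjusted p = 4.6e-19) was called, with 0.774% of genes called lower, and that of -0.44 in Bmal1-/- was not, with 0.646%. Rbm3 summed with its copies differed by -0.06 (adjusted p = 0.432) and -0.24 in Bmal1-/- and by -0.33 and -0.66 in WT with the longest and shortest length. The sign of the Rbm3 difference thus depended on whether the copies were counted with it. In WT the higher side held 67.5% of calls as deposited and 55.4% with median-of-ratios scaling, and the Rbm3 difference was 0.09 with that scaling (adjusted p = 0.206).

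The AM libraries at CT15 were the highest of their course for Cirbp, Rbm3 and Rbm3-ps in both genotypes. Cirbp reached 54.6 FPKM in Bmal1-/- and 23.8 FPKM in WT there, Rbm3 11.9 and 15.1 FPKM, and Rbm3-ps 125 and 120 FPKM, Bmal1-/- first. The margin was small for Cirbp in WT, with 23.1 FPKM at CT33, and for Rbm3 in Bmal1-/-, with 11.2 FPKM at CT24. Within the WT PM course the library at CT15 had the highest Cirbp, 41.1 FPKM. Neither gene had a call in the AM and PM fit with all libraries, and leaving out the CT15 libraries gave none. With no call to lose, this does not show the part of those libraries in the levels.

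The coefficient of variation of Cirbp was 6.9% at 27 °C, 7.01% at 32 °C and 10.4% at 37 °C in Bmal1-/-, and 9.21%, 9.71% and 16.5% in WT. That of Rbm3 was 10.3%, 12% and 18.8% in Bmal1-/- and 10.4%, 9.86% and 17.5% in WT. In PM and AM it was 8.12% and 17.6% for Cirbp in Bmal1-/- and 18.7% and 16% in WT, and for Rbm3 11.1% and 14.2% in Bmal1-/- and 14.3% and 19.4% in WT. A rhythm was tested as a 24 h cosine and sine with a linear trend per course, and called at an adjusted p under 0.05 in limma's moderated F test. Amplitudes are log2 values from the mid-level to the peak.

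A 24 h rhythm of Cirbp was called in 1 of 10 courses, WT at 37 °C, with an amplitude of 0.18 (SE 0.04, adjusted p = 0.0154) and a peak at CT6.0. Rbm3 was called in 2, at 37 °C in Bmal1-/- with an amplitude of 0.26 (adjusted p = 4.63e-06) and a peak at CT5.1, and at 37 °C in WT with 0.17 (adjusted p = 0.0141) and CT6.8. Called genes made up 8.46% of those tested in Bmal1-/- at 37 °C and 4.92% in WT at 37 °C, and between 0.253% and 9.85% in the other 8 courses. The Cirbp amplitude in Bmal1-/- at 37 °C was 0.05 (adjusted p = 0.676), and the difference between genotypes was not tested. Rbm3-ps was called in 0 of 10 courses, where the lowest adjusted p was 0.311 in WT AM. Summed with its copies at the shortest length, the Rbm3 amplitude at 37 °C was 0.05 in Bmal1-/- and 0.10 in WT with no call (adjusted p = 0.647 and 0.192), and at the longest length it was 0.12 and 0.13 (adjusted p = 0.0435 and 0.0451). The Cirbp call at 37 °C in WT was lost without the linear term (amplitude 0.14, adjusted p = 0.0719) and when the CT14 27 °C pair was put in the fit (adjusted p = 0.107).

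**Figure D4:**
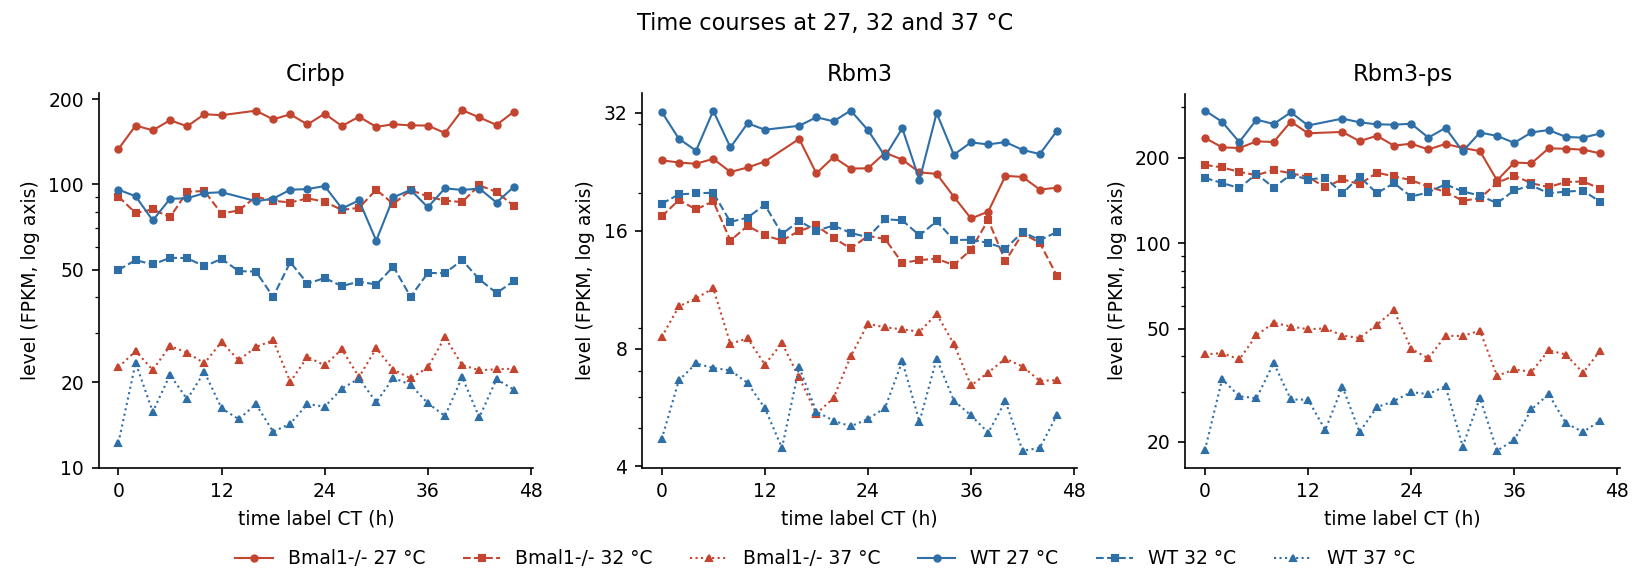
Levels of Cirbp, Rbm3 and Rbm3-ps in FPKM on log axes against the time label CT in hours, for Bmal1-/- (red) and WT (blue) at 27 °C (circles, solid), 32 °C (squares, dashed) and 37 °C (triangles, dotted); each point is 1 library. Rbm3 at 37 °C was highest at CT6 in Bmal1-/- (11.4 FPKM) and at CT32 in WT (7.53 FPKM). Within each genotype Cirbp kept its order by temperature at every matched time point.

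A linear fall of Rbm3 over the course was called in the 4 cooled courses. The slopes per 24 h were -0.15 at 27 °C (adjusted p = 0.0201) and -0.21 at 32 °C (adjusted p = 0.000722) in Bmal1-/-, and -0.13 at 27 °C (adjusted p = 0.0394) and -0.15 at 32 °C (adjusted p = 0.0133) in WT. Called falls made up 11.7% of genes at 27 °C and 7.33% at 32 °C in Bmal1-/-, and 17% at 27 °C and 15.3% at 32 °C in WT. Over all 10 courses the Rbm3 slopes ran from -0.21 to -0.03, with -0.2 in WT AM (adjusted p = 0.0653 by limma, not called). A difference of slope between courses was not tested. The WT fall at 27 °C was lost without the library at CT30, the lowest of its course for both genes (slope -0.1, adjusted p = 0.14), and in 5 other alternatives, with the CT14 pair, without the cosine, with no filter, with only the compared courses and with a pseudocount of 0.1. Cirbp had a called trend in 1 course, a rise of 0.15 per 24 h in WT at 37 °C (adjusted p = 0.0288), with 10.3% of genes called rising there. It was lost in 4 of the alternatives tried. Rbm3-ps fell in Bmal1-/- at 27 °C (-0.16) and 37 °C (-0.16) and in WT at 27 °C (-0.15).

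Within a course Cirbp and Rbm3 varied together in 4 WT courses by Pearson's r, and a difference between genotypes was not tested. Pearson's r of log2(FPKM + 1) in WT was 0.61 in AM, 0.58 at 27 °C, 0.52 at 32 °C and 0.52 at 37 °C, with a two-sided permutation p adjusted over the 10 courses of 0.0239 in each, and 0.48 in PM (adjusted p = 0.0976). In Bmal1-/- it ran from -0.31 at 32 °C to 0.2 at 27 °C, with the lowest adjusted permutation p at 0.236. Spearman's rho in WT ran from 0.31 at 27 °C to 0.55 at 37 °C, and its lowest adjusted permutation p was 0.0568, so the rank measure gave no call. Without the 2 libraries farthest from the median of Cirbp, r was 0.2 at 27 °C, 0.5 at 32 °C, 0.45 at 37 °C and 0.42 in AM in WT, so the WT relation at 27 °C rests on those libraries. The permutation took time points as exchangeable, and trends and 24 h rhythms were left in the values. At 37 °C in WT both genes had a called rhythm, with peaks at CT6.0 for Cirbp and CT6.8 for Rbm3. Libraries of a course also share their scaling. The part of trend, rhythm and scaling in r was not tested.

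The genes most like each member over the 10 course means were chosen by Pearson's r of mean log2(FPKM + 1), as a description over points that share cells and libraries. For Cirbp they were Hmg20b (r = 0.995), which encodes a subunit of the LSD1 and CoREST complex, the autophagy gene Wipi1 (0.99), the scaffold gene Dlgap4 (0.987), Accs (0.985) and the deubiquitinase gene Usp15 (0.985). Hmg20b was higher in Bmal1-/- than in WT by 0.6 at 27 °C and 0.19 at 37 °C, with an interaction of 0.41. It was picked for likeness to Cirbp over the same course means, so signs like those of Cirbp follow largely from that choice. For Rbm3 they were the TGF-beta mediator gene Smad2 (0.977), Ppp4r2 (0.971), which encodes a regulatory subunit of protein phosphatase 4, the autophagosome gene Stx17 (0.97), Camsap1 (0.969), whose product binds microtubule minus ends, and the transporter gene Slc35b3 (0.968). Cirbp and Rbm3 had r = 0.868 with each other, and Rbm3 ranked 903rd for Cirbp. With Spearman's rho, 0 of the 5 genes for Cirbp and 1 of the 5 for Rbm3, Stx17, were picked again, with several genes tied at the highest rho for Cirbp.

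Around the course means, over 210 libraries, the highest r with Cirbp was 0.402 for Arfgap2, a regulator of ARF GTPases, followed by Commd4 (0.398), Rab24 (0.395), Stk25 (0.392) and Pym1 (0.388). For Rbm3 it was 0.571 for Ppox, a heme synthesis gene, and for Tia1 (0.571), which encodes an RNA-binding protein of stress granules, then Wsb1 (0.554), Gpr162 (0.539) and Pnisr (0.535). Cirbp and Rbm3 had r = 0.333.

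Of 10 tested genes reported to act on the pair, 0 were called at 27 or 32 °C against 37 °C in either genotype. With 7.64% of all genes in Bmal1-/- and 8.38% in WT called higher at 27 °C, and 1.77% and 1.93% at 32 °C, a count of 0 in a list this short is near the background. The transcription factor gene Sp1 was lower at 27 °C than at 37 °C by -0.91 in Bmal1-/- and -0.79 in WT, and the kinase genes Clk1 (0.63 and 0.68), Clk4 (0.62 and 0.51) and Clk3 (0.36 and 0.43) were higher, all under 2-fold. The list's median at 27 °C against 37 °C was 0.33 in Bmal1-/- and 0.34 in WT, beside 0.21 over all genes. In the PM to AM comparison in WT, 3 of 11 tested regulators rose in PM, beside 1.61% of all genes: Clk1 by 1.32, Clk2 by 1.11 and the splicing factor gene Srsf5 by 1.02. The first of these was named by its change at 27 °C, and the others because the count is small. In Bmal1-/- 0 of the 11 were called in that comparison, beside 0.519% of all genes called higher. The list was chosen with earlier results of these data known. Ntrk2, a receptor reported upstream of Rbm3 in neurons, averaged 2.69 FPKM in PM and 1.85 in AM in Bmal1-/-, and 0.0328 and 0.0126 in WT. It passed the filter of 1 FPKM on the mean there only through Bmal1-/-, so its log2 differences of 1.83 and 1.47 are descriptive. In the temperature courses it was not tested, and in Bmal1-/- it averaged 0.0728 FPKM at 27 °C, 0.24 at 32 °C and 1.53 at 37 °C.

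Among 7 genes for transport into the nucleus and protein modification, 1 rose in Bmal1-/- and 2 in WT at 27 °C, beside 7.64% and 8.38% of all genes. Prmt1, an arginine methyltransferase known to act on CIRBP, rose by 1.07 in Bmal1-/- and 1.11 in WT, and the kinase subunit gene Csnk2a2 by 1 in WT with 0.94 in Bmal1-/-. Gsk3b differed by 0.5 in Bmal1-/- and 0.88 in WT, and the import receptor gene Tnpo1 by 0.54 and 0.75. The list's median was 0.54 in Bmal1-/- and 0.75 in WT, beside 0.21 over all genes in both.

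Of 8 genes with a cold shock domain 5 were tested, and Ybx1, which encodes a messenger RNA packaging protein, rose at 27 °C against 37 °C in WT by 1.39 with 0.87 in Bmal1-/-. It differed little at 32 °C against 37 °C, by 0.01 in Bmal1-/- and 0.17 in WT. Ybx3 differed by 0.82 in Bmal1-/- and 0.77 in WT at 27 °C, and Carhsp1 by 0.51 in both, neither called. Of 7 tested relatives with an RNA recognition motif, Rbmx rose in WT by 1.1 with 0.25 in Bmal1-/-, while Rbmxl1 (0.44 and 0.48), Tra2b (0.21 and 0.62) and Rbm4 (0.16 and 0.46) were not called. Genes called higher at 27 °C against 37 °C made up 7.64% of all genes in Bmal1-/- and 8.38% in WT. In lists this short 1 call is near that background.

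Of 9 tested genes reported as targets or effectors, 1 was called at 32 °C against 37 °C, in WT, and 0 at 27 °C, where 1.93% and 8.38% of all genes in WT were called higher. These counts are near the background. Tlr4, a receptor known to respond to extracellular CIRBP, rose at 32 °C in WT by 1.03 with 0.58 in Bmal1-/-, and differed by 0.48 in Bmal1-/- and 0.85 in WT at 27 °C. Its partner Ly96 differed by 0.8 in Bmal1-/- and 0.73 in WT at 27 °C, Rtn3, a mediator of RBM3 action in mouse brain, by 0.7 and 0.56, and the thioredoxin gene Txn1 by 0.42 and 0.68. Of 12 tested heat shock genes, Hsph1, which encodes an HSP110 chaperone, fell at 27 °C against 37 °C by -2.72 in Bmal1-/- and -2.29 in WT, and at 32 °C by -1.88 and -1.39, with 4.04% of genes in Bmal1-/- and 5.21% in WT called lower at 27 °C, and 0.944% and 1.37% at 32 °C. Hsp90ab1 rose at 27 °C in WT by 1.04 with 0.77 in Bmal1-/-, and Hspb1, named because the count is small, by 1.21 with 0.48. The factor gene Hsf1 differed by -0.78 in Bmal1-/- and -0.91 in WT, and Dnaja1 by 0.87 and 0.95, neither called. The list's median at 27 °C against 37 °C was 0.06 in Bmal1-/- and 0.32 in WT, beside 0.21 over all genes in both.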

How the data were processed

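Stranded poly(A) libraries were sequenced as single 101-base reads, per the labels' protocols. The deposited table holds FPKM per Ensembl gene, made by the authors with TopHat2 2.1.0, TopHat and Cuffdiff on GRCm38, per the submitters' processing notes. The annotation and the handling of reads with several matches are not stated there. The members, lists and tests were chosen with earlier results of these data known.

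FPKM was taken as log2(FPKM + 1), genes averaging at least 1 FPKM were kept, and limma 3.58.1 (R 4.3.3, trended empirical Bayes, Benjamini-Hochberg over all genes tested) was fitted to the temperature courses together and to PM and AM together, with a mean, a linear time term and a 24 h cosine and sine per course. Per list, the 4 genes with the largest mean change at 27 °C were named, and per member the 5 genes with the highest r, passing over predicted genes, clones and pseudogenes. A further gene was named where a list's count of calls was small, and 1 gene that the rule named, with its list's median, is not reported here. Copies of Rbm3 were found with blastn 2.17.0 on GENCODE vM21 transcripts, and promoters came from RefSeq GRCm38.p6. The fits were tested on simulated data with independent noise per library. Such data cannot show the effect of dependence between time points or of differences between cell preparations. Depth was estimated from the FPKM worth of 1 read in 1357 single-transcript genes, where 93.9% of low values lay within 0.15 of a whole read, so no counting intervals are given.

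Alternatives were another pseudocount, no filter, median-of-ratios scaling, other periods and terms, a time point block, fits of the compared courses only, the CT14 pair included, and, added after seeing the data, Rbm3 summed with its copies, no CT15 libraries in AM and PM, and no WT 27 °C library at CT30. Libraries of shared time points were not treated as pairs in the main fits, since in 0 of 13 comparisons did every same-time pair of deviations correlate above 0.1. That rule asks for every pair to pass, so it cannot show that the libraries were unpaired. The median r of same-time pairs ran from 0.021 to 0.075 over the comparisons, and 44 of 279 pairs were above 0.1. Pairs from other time points had a lower median in each comparison, between -0.006 and 0.002.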

Additional observations from a re-analysis of the deposited data

Results flagged for a closer look

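The cold response differed between genotypes by the interaction test for both genes. For Cirbp the difference of 27 °C against 37 °C was larger in Bmal1-/- than in WT by 0.45 on the log2 scale, and that of 32 °C against 37 °C by 0.41. For Rbm3 the same interactions were -0.72 and -0.52.

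The pair of 27 °C libraries at CT14, left out of the main results, held both genes above the highest 37 °C library. The library labelled Bmal1-/- had 88.9 FPKM of Cirbp and 26.1 FPKM of Rbm3, and the library labelled WT had 160.2 FPKM of Cirbp and 21.8 FPKM of Rbm3. At 27 °C the other libraries held 133 to 183 FPKM of Cirbp in Bmal1-/- and 63.3 to 98.7 FPKM in WT. Each Cirbp value of the pair thus lay within the range of the opposite label and outside that of its own. Both Rbm3 values lay within the 27 °C ranges of both genotypes. Cdkn1a was 3.87 FPKM in the library labelled Bmal1-/- and 109 FPKM in the one labelled WT, opposite to all other libraries of those labels.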

How the results depend on the processing

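Of the alternatives for the 2 genes, most kept direction and call. Where they did not, the cause was not tested. Summing Rbm3 with its copies (longest, then shortest transcript) gave 1.46 and 1.70 at 32 °C against 37 °C in Bmal1-/-, now called, 0.00521 and 0.0411 for Bmal1-/- minus WT at 32 °C, -0.0562 and -0.24 for PM minus AM in Bmal1-/-, -0.33 and -0.66 in WT, and steps of -1.02 and -1.29 in Bmal1-/- and -1.32 and -1.61 in WT, now called. With the shortest transcript the 37 °C rhythms were 0.0542 in Bmal1-/- and 0.10 in WT, no longer called, and the Bmal1-/- 37 °C trend was -0.12, now called. The Cirbp rhythm in WT at 37 °C lost its call at 0.18 with the CT14 pair and 0.14 without the linear term. Its trend there lost its call at 0.15 with the CT14 pair, no filter or only the compared courses, and at 0.0622 without the cosine, and its trend in WT at 32 °C gained one at -0.13 with only the compared courses. The Rbm3 trend in WT at 27 °C lost its call at -0.0897 with the CT14 pair, -0.0919 without the cosine, -0.13 with no filter, only the compared courses or a pseudocount of 0.1, and -0.10 without the CT30 library. Without the cosine, Rbm3 trends of -0.18 in Bmal1-/- 37 °C, -0.14 in WT 37 °C and -0.24 in WT AM gained a call.

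Counts over all genes moved by over 1.5 times with a pseudocount of 0.1: 813 against 434 for 27 minus 32 °C in Bmal1-/- and 957 against 569 in WT, 644 against 353 for 32 minus 37 °C in Bmal1-/- and 723 against 429 in WT, 311 against 155 for PM minus AM in Bmal1-/- and 541 against 317 in WT, 892 against 575 and 317 against 194 for the interactions, and 890 against 552 for the Bmal1-/- steps. Rhythm counts at 37 °C were 1102 in Bmal1-/- (590 with the CT14 pair, 484 without the linear term, 412 at 22 h, 1941 at 26 h) and 641 in WT (162 with the CT14 pair, 423 at 26 h). In Bmal1-/- PM the count of 402 was 6 at 22 h and 8 without CT15, and without CT15 the counts were also 262 against 453 in Bmal1-/- AM and 445 against 747 in WT PM. The time point as a replicate block changed no call of either gene, with Cirbp at 2.74 and Rbm3 at 1.39 for 27 minus 37 °C in Bmal1-/-.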
